A study of Mus musculus with 9 samples.

Results

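The comparison set every library from MPTP-exposed mice against every library from saline-injected mice. It asked which transcript differences from vehicle were present after the toxin, whether or not the mice had run. Of the 9 libraries, 6 were from exposed mice and 3 from vehicle mice. Of 55335 genes in the table, 15997 had a mean of at least 0.5 FPKM (fragments scaled to exonic length and library size) over the 9 libraries and were compared. The RNA came from brain tissue that the study design calls substantia nigra. Mice of the MPTP group received 20 mg/kg MPTP-HCl in saline by intraperitoneal injection, 2 injections per week for 5 weeks. The MPTP+PE mice were injected alike, and from the first injection on they also had access to voluntary wheel exercise, for 2 months. Mice of the Vehicle group received saline on the same weekly schedule. Each group had 3 libraries. No group ran without MPTP, so running is present in 3 of the 6 exposed libraries and in none of the vehicle libraries. The sources used here give neither strain, age or sex nor the time of dissection.

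MPTP is a protoxin. Glial monoamine oxidase B turns it into MPP+, which enters dopaminergic neurons through the dopamine transporter and blocks complex I of the mitochondrial respiratory chain. In mice the damage is followed by activation of microglia and astrocytes around the dopaminergic cell bodies, and repeated dosing leaves a partial lesion. Type I interferon acts on most brain cells by way of interferon-stimulated response elements in promoters, and microglia are among the strongest responders.

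No gene passed an adjusted p of 0.05 when the 6 exposed libraries were compared with the 3 vehicle libraries (limma on log2(FPKM + 1), Benjamini-Hochberg over 15997 genes, 0%). The smallest adjusted p was 0.741. At an unadjusted p under 0.05, 507 genes were higher in exposed mice (3.17%) and 497 lower (3.11%). For 273 genes (1.71%) all 6 exposed values lay above all 3 vehicle values, and for 296 genes (1.85%) all 6 lay below. The median log2 difference over all tested genes was −0.01, and 46.0% of genes were higher. The split between higher and lower depended on the scaling. With each library brought to the same FPKM sum, 193 genes were higher and 1289 lower at an unadjusted p under 0.05, and with the same sum outside the mitochondrial genome the numbers were 250 and 991. Without Vehicle 1, 3 genes passed (Prkacb, Gm49510 and Pdxp), and without Vehicle 2, 2 passed (B3gnt2 and Gm28048). All differences below are therefore given as values of these libraries, and none is a call over all genes unless it says so.

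The libraries differed in ways that bear on several gene groups. The FPKM sum was 318416 to 319431 in vehicle libraries and 326614 to 347524 in exposed libraries. Pearson correlations across genes were 0.966 to 0.982 among the 15 exposed pairs, 0.967 to 0.977 among the 3 vehicle pairs and 0.956 to 0.979 between the groups. The 3 ranges overlapped. Vehicle 3 held much more haemoglobin RNA than the other libraries, and MPTP+PE 2 held little of the choroid plexus RNA seen in the other 5 exposed libraries.

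Genes induced by interferon were higher in exposed than in vehicle mice in all 31 tested members of a list of 36, with a median log2 difference of 0.64 against −0.01 over all genes. The unadjusted p was under 0.05 for 14 of the 31 (45.2%, against 3.17% of all genes higher). For 15 the exposed and vehicle values did not overlap, while 1.71% of all genes lay above vehicle in this way. None passed over all genes. By arm, 31 of 31 were higher than vehicle in MPTP and 28 of 31 in MPTP+PE. Ifi27 (ENSMUSG00000064215, chr12:103434211-103440239, GRCm38, plus strand), which encodes a small interferon-induced mitochondrial protein, was at 10.4, 10.1 and 11.3 FPKM in Vehicle 1 to 3. It was at 19.3, 27.9 and 28.9 FPKM in MPTP 1 to 3 and at 15.5, 14.5 and 18.7 FPKM in MPTP+PE 1 to 3. Every exposed library was above every vehicle library, and every MPTP library was above every MPTP+PE library. The mean was 20.8 ± 6.17 FPKM in exposed (SD, n = 6) and 10.6 ± 0.633 FPKM in vehicle libraries (SD, n = 3), a log2 difference of 0.87 with a standard error of 0.21 (limma adjusted p 0.741).

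Bst2, which encodes tetherin, a membrane protein that holds budding virus at the cell surface, showed the same order of groups. It was at 1.79, 2.43 and 2.47 FPKM in vehicle libraries, at 7.28, 14.6 and 20.7 FPKM in MPTP libraries and at 5.73, 3.52 and 5.27 FPKM in MPTP+PE libraries. The exposed mean was 4.28 times the vehicle mean, and no values overlapped. Lgals3bp, a secreted galectin-binding glycoprotein, was at 3.75 to 3.95 FPKM in vehicle and at 5.20 to 31.7 FPKM in exposed libraries. Its highest value was in MPTP 3, and the next was 12.4 FPKM in MPTP 2. Oas1a, a sensor of double-stranded RNA, was at 0.403, 0.557 and 0.202 FPKM in vehicle libraries. In exposed libraries it was at 0.876, 1.39 and 1.73 FPKM (MPTP) and 0.918, 1.12 and 0.780 FPKM (MPTP+PE), so the groups were again apart at low levels.

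Ifit1, whose product binds viral RNA lacking a methylated cap, was at 1.15 to 1.41 FPKM in vehicle and 1.89 to 7.61 FPKM in exposed libraries. Irf7, the transcription factor that amplifies the interferon response, was at 0.406 to 0.471 FPKM in vehicle and 0.652 to 2.70 FPKM in exposed libraries. Neither gene had overlapping values. Other members overlapped. Ifit2 was at 2.97 to 4.56 FPKM in vehicle and 3.51 to 4.74 FPKM in exposed libraries, and Samhd1, which limits nucleotide pools, was at 2.10 to 2.25 and 1.65 to 3.11 FPKM. Oas2, Mx1, Mx2, Ifi44 and Zbp1 were under the limit of 0.5 FPKM and were not compared. Ifit3 and Ifit3b are near-identical copies between which reads may have been split.

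Many of these genes, and a few of those for antigen presentation described next, carry in their promoters the element through which interferon acts, and 6 stretches of 60 bases with a match are shown to make it visible. They are from RefSeq on GRCm38.p6, from 3 genes with the element on the gene's strand and 3 with it on the opposite strand. Capitals mark the interferon-stimulated response element, searched as GAAA, any 2 bases and GAAA again, or its complement as read on the gene's strand.
Bst2: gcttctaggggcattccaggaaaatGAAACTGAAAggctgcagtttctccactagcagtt
Isg15: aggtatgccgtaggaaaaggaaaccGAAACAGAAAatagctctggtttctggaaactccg
B2m: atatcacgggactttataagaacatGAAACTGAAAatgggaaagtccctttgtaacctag
Ifit1: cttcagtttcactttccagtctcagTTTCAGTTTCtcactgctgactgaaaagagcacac
Gbp3: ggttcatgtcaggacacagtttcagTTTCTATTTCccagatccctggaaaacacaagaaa
H2-T22: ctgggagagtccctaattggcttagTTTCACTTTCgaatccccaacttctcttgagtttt

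These stretches lie at chr8:71537562-71537621 (minus strand) for Bst2, chr4:156200850-156200909 (minus) for Isg15 and chr2:122147523-122147582 (plus) for B2m. Those of Ifit1, Gbp3 and H2-T22 lie at chr19:34640779-34640838 (plus), chr3:142559980-142560039 (plus) and chr17:36042899-36042958 (minus). The matched bases are 115 to 124 bases before the start of Bst2, 57 to 66 before Isg15, 130 to 139 before B2m, 76 to 85 before Ifit1, 30 to 39 before Gbp3 and 182 to 191 before H2-T22. Over the 300-base windows (250 before the start, 50 after), on both strands, 17 of the 24 tested interferon genes with a RefSeq promoter held the motif (70.8%). Among all 11003 tested genes with a promoter, 384 held it (3.49%). In the antigen presentation list it was found in 3 of 15 genes (20.0%), B2m, H2-T22 and H2-T23. Of the other 7 motifs searched, AP-1 sites were found in 8 of the 24 interferon promoters (33.3%, against 5.87% of all) and gamma-activated sites in 7 (29.2%, against 8.02%). Antioxidant elements (16.7% in both), E-boxes, heat shock, cyclic AMP and glucocorticoid elements were in 4 or fewer. A match describes the letters in this window only, and the list was made of genes known to respond to interferon.

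Antigen presentation genes, which load peptides on major histocompatibility complex (MHC) molecules for display to T cells, were higher in exposed mice in 18 of 18 tested members (median log2 difference 0.40). By arm, 18 of 18 were higher than vehicle in MPTP and 15 of 18 in MPTP+PE. The unadjusted p was under 0.05 for 6 (33.3%, against 3.17% of all genes higher), namely H2-K1, H2-D1, H2-Q6, H2-T22, B2m and Tapbp. Only for 2 of the 18, H2-K1 and B2m, did all exposed values lie above vehicle, as for 1.71% of all genes. B2m (ENSMUSG00000060802, chr2:122147686-122153083), the invariant light chain of class I molecules, was at 72.0, 79.3 and 62.9 FPKM in vehicle libraries. It was at 120, 187 and 163 FPKM in MPTP libraries and at 108, 106 and 91.9 FPKM in MPTP+PE libraries. All 6 exposed values were above all 3 vehicle values, with means of 129 ± 37.3 (SD, n = 6) and 71.4 ± 8.18 FPKM (SD, n = 3).

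Tapbp encodes tapasin, which holds empty class I molecules at the peptide transporter. It was at 3.74, 5.59 and 3.57 FPKM in vehicle, 6.92, 6.34 and 6.09 FPKM in MPTP and 6.47, 5.81 and 5.55 FPKM in MPTP+PE libraries. Only Vehicle 2 reached the exposed range, just above MPTP+PE 3. Its exons overlap Zbtb22 and Gm19412, so its reads may be shared. H2-K1, a class I heavy chain, was at 5.13, 5.73 and 5.77 FPKM in vehicle and 12.1, 17.2 and 14.9 FPKM in MPTP libraries. In MPTP+PE libraries it was at 6.41, 7.20 and 6.88 FPKM, above vehicle but closer to vehicle than to the sedentary exposed mice. The class II gene H2-Aa overlapped, at 0.242 to 0.755 FPKM in vehicle and 0.261 to 1.44 FPKM in exposed libraries, with its 3 highest values in MPTP mice. Class I heavy chains are near-identical copies, so the values of H2-Q6 and its neighbours are uncertain.

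**Figure D1:**
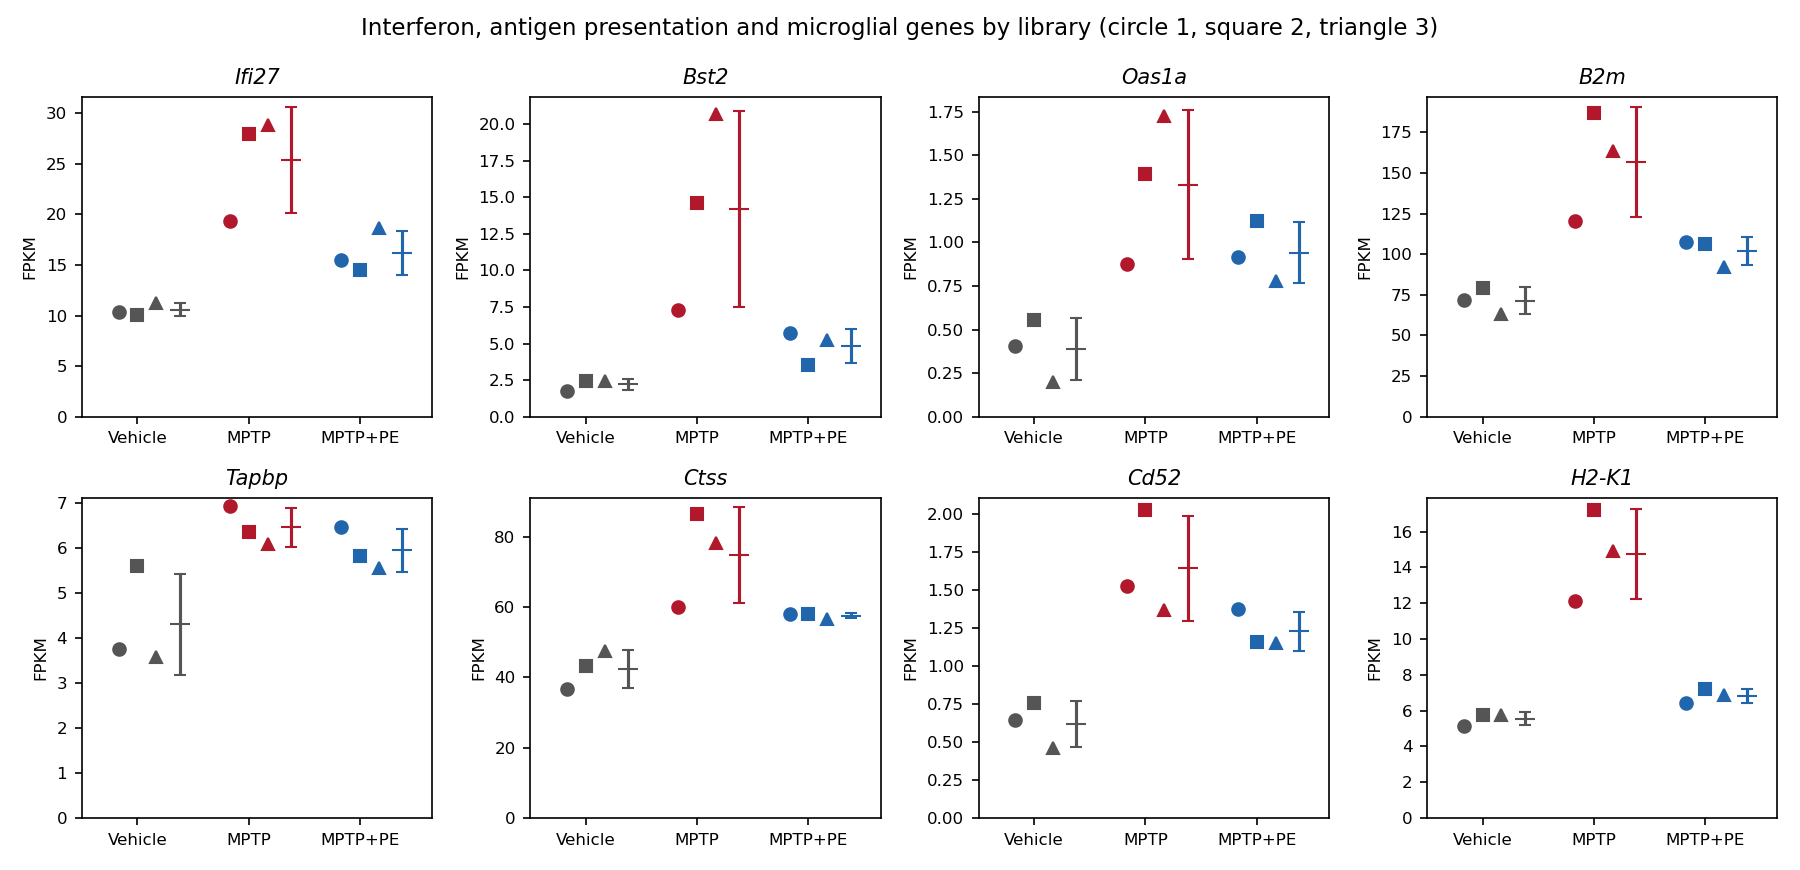
FPKM (linear axis from 0) of 8 interferon, antigen presentation and microglial genes in each library, by group, with the mean and SD of each group of 3 beside the points. For Ifi27, Bst2, Oas1a, B2m, Ctss, Cd52 and H2-K1 no exposed point lies within the vehicle range, and MPTP points lie mostly above MPTP+PE points.

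Against the same 3 vehicle libraries, the median log2 difference of the interferon list was 0.89 for MPTP and 0.28 for MPTP+PE, and that of antigen presentation was 0.64 and 0.11. Both arms share the vehicle libraries, and the direct contrast of MPTP+PE with MPTP tests the difference. In that contrast all 31 interferon and all 18 antigen presentation genes were lower in MPTP+PE, with an unadjusted limma p under 0.05 for 18 and 14 of them. Other lists were lower in that contrast as well: choroid plexus in 16 of 16 (9 with an unadjusted p under 0.05, median log2 difference −1.07), pericytes, smooth muscle and fibroblasts in 17 of 17 (5, −0.34), endothelium in 19 of 20 (9, −0.23) and border macrophages in 7 of 8 (4, −0.51). Their part in the interferon and antigen presentation values was not tested. The background at that level was 2.89% of all genes lower and 1.11% higher, and no gene passed over all genes (limma, 639 of 15997 genes at an unadjusted p under 0.05). Against vehicle alone, limma called 2 genes in MPTP mice (0.0125%), Igfbp2 and H2-K1, and 0 genes in MPTP+PE mice (0%). The count in MPTP mice was 32 without MPTP 1 and 0 without MPTP 2, without MPTP 3, or without any 1 of the MPTP+PE libraries. It was 4 without Vehicle 1 and 1 without Vehicle 3. In MPTP+PE mice it was 2 without Vehicle 1 or Vehicle 2 and 1 without MPTP+PE 1 or MPTP+PE 2. For MPTP+PE against MPTP it was 25 without MPTP 1, 2 without MPTP 2 and 1 without MPTP 3, MPTP+PE 1 or MPTP+PE 2.

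Mean log2(FPKM + 1) over the interferon list was 1.45 to 1.51 in vehicle libraries, 1.81, 2.47 and 2.83 in MPTP 1 to 3 and 1.76, 1.82 and 1.81 in MPTP+PE 1 to 3. The 3 MPTP+PE libraries were thus close together and above vehicle, and the 3 MPTP libraries were spread out. The same mean over 16 choroid plexus genes was 1.26, 1.29 and 2.06 in vehicle, 3.26, 2.59 and 3.54 in MPTP and 2.48, 1.03 and 2.65 in MPTP+PE libraries. The group averages of both lists were highest in MPTP and lowest in vehicle, and MPTP 3 was the highest library in both. The order of the other libraries within groups differed in part between the lists. Vehicle 3, the highest vehicle library for choroid plexus, was the lowest for interferon (1.45). MPTP+PE 2, which had less choroid plexus RNA than any vehicle library, had an interferon mean of 1.82. With the choroid plexus mean as a covariate, the median log2 difference was 0.38 for the interferon list and 0.28 for antigen presentation. The covariate itself was higher in exposed than in vehicle libraries (mean 2.59 against 1.54), so this fit cannot separate it cleanly from exposure. The part of choroid plexus in the result was not tested.

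Genes of microglia and of activated microglia were mostly higher in exposed mice, by small amounts. Of 24 microglial markers, 21 were higher with a median log2 difference of 0.10. An unadjusted p under 0.05 was found for 2, Ctss and Ly86 (8.33%, against 3.17% of all genes higher). Ctss (ENSMUSG00000038642, chr3:95526786-95556403) encodes cathepsin S, a lysosomal protease that processes antigens. It was at 36.7, 43.1 and 47.6 FPKM in vehicle, 59.9, 86.6 and 78.1 FPKM in MPTP and 57.9, 58.1 and 56.7 FPKM in MPTP+PE libraries. All exposed values lay above all vehicle values, and the means were 66.2 ± 12.8 (SD, n = 6) and 42.5 ± 5.47 FPKM (SD, n = 3).

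The defining microglial receptors did not separate the groups. Cx3cr1, the fractalkine receptor, was at 1.58 to 4.18 FPKM in vehicle and 0.949 to 4.28 FPKM in exposed libraries, and P2ry12, a purine receptor of resting microglia, at 4.72 to 8.32 and 4.26 to 12.5 FPKM. Csf1r, the receptor on which microglia depend for survival, was at 12.6 to 14.8 and 11.9 to 16.3 FPKM. In tissue RNA, more cells of a type and more RNA per cell cannot be told apart.

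Of 15 tested genes of activated microglia, 14 were higher (median log2 difference 0.12). The exposed values of 4 lay all above vehicle, as did those of 1.71% of all genes. Cd52, a small surface glycoprotein of leukocytes and microglia, was at 0.643, 0.754 and 0.457 FPKM in vehicle libraries. It was at 1.53, 2.03 and 1.37 FPKM in MPTP and 1.37, 1.16 and 1.15 FPKM in MPTP+PE libraries. The log2 difference was 0.58 with a standard error of 0.12, the smallest p of the list (unadjusted limma p 0.000655, adjusted 0.741). Its annotation overlaps Crybg2. Cd63, a lysosomal tetraspanin, was at 9.05, 9.49 and 10.3 FPKM in vehicle and 10.9 to 12.3 FPKM in exposed libraries. Ctsd, the lysosomal aspartic protease, was at 140 to 142 FPKM in vehicle and 143 to 177 FPKM in exposed libraries. Lpl, which releases fatty acids from lipoproteins, was at 0.770 to 1.01 and 1.08 to 2.46 FPKM. Apoe, a lipid carrier of the same list, was at 222 to 345 and 245 to 363 FPKM and overlapped. Cst7, Itgax, Clec7a, Lgals3 and Gpnmb, other markers of activated microglia, were under the limit and were not compared.

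Signalling molecules and complement gave few differences. Of 10 tested cytokines and chemokines, 7 were higher. Ccl12, a monocyte attractant, was at 0.222 to 0.559 FPKM in vehicle and 0.527 to 2.04 FPKM in exposed libraries (unadjusted limma p 0.0184). Cxcl12, a vascular and meningeal chemokine, was at 6.78 to 7.41 and 4.65 to 7.11 FPKM, and its lowest values were the 3 of MPTP+PE mice (unadjusted limma p 0.0317). Of 14 complement genes, 11 were higher with a median log2 difference of 0.10. By arm, 13 of 14 were higher than vehicle in MPTP (median 0.19) and 6 of 14 in MPTP+PE (median −0.02). Cd59a, which protects cells from the terminal complement complex, was the only member with an unadjusted p under 0.05 (7.14%, against 3.17% of all genes higher). It had the largest difference, at 2.95 to 4.84 FPKM in vehicle and 3.69 to 13 FPKM in exposed libraries (log2 difference 0.79, unadjusted limma p 0.0301). C1qa, which starts the classical cascade, was at 23.9 to 30.0 FPKM in vehicle and 27.7 to 41.4 FPKM in exposed libraries. Reactive astrocyte genes were higher in 4 of 12, with no unadjusted p under 0.05. Gfap, the astrocyte filament, was at 42.4 to 68.9 FPKM in vehicle and 54.0 to 89.6 FPKM in exposed libraries.

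The dopaminergic markers, which check the tissue, varied more within groups than between them. With that spread, the comparison of 6 with 3 libraries could not show or exclude a partial lesion. Th (ENSMUSG00000000214, chr7:142892752-142931128), the rate-limiting enzyme of dopamine synthesis, was at 5.30, 2.97 and 15.6 FPKM in vehicle libraries. It was at 5.93, 1.64 and 12.5 FPKM in MPTP and 2.66, 5.35 and 6.69 FPKM in MPTP+PE libraries. The log2 difference was −0.33 and the exact two-sided permutation p over 84 splits was 0.607. Slc6a3, the dopamine transporter that takes up MPP+, was at 3.40, 1.41 and 10.8 FPKM in vehicle and 2.75, 0.0377 and 14.4 FPKM in MPTP libraries. In MPTP+PE libraries it was at 0.149 FPKM, listed at 0, and at 10.6 FPKM, so both exposed arms held libraries with almost none and 1 library near or above the highest vehicle value. Its exact permutation p was 0.595.

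Slc18a2, the vesicular transporter that stores dopamine and sequesters MPP+, was at 3.62 to 8.38 FPKM in vehicle and 1.46 to 10.7 FPKM in exposed libraries (exact permutation p 0.786). Ddc, which makes dopamine from its precursor, was at 4.61 to 9.34 and 2.48 to 11.9 FPKM (exact permutation p 0.643). The smallest p that 84 splits allow is 0.0119, and adjusted over the 6 genes tested this way the values were 0.771 to 0.786. Over the list of 17 tested dopaminergic genes, 12 were higher, the median log2 difference was 0.15 and none had an unadjusted p under 0.05. The list mean was 2.65, 2.17 and 2.43 in vehicle, 2.65, 1.85 and 2.99 in MPTP and 2.03, 2.61 and 2.77 in MPTP+PE libraries. Pitx3, Foxa2 and Foxa1 were under the limit. Genes that take up and convert MPTP overlapped as well, with Maob at 11.1 to 18.3 FPKM in vehicle and 9.76 to 17.5 FPKM in exposed libraries.

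Markers of neighbouring regions varied with the library. All 12 thalamic genes were lower in exposed mice (median log2 difference −0.41) without an unadjusted p under 0.05. Tcf7l2, a transcription factor of thalamic neurons, was at 17.4, 3.60 and 7.38 FPKM in vehicle and 0.390 to 10.7 FPKM in exposed libraries. All 12 hippocampal and cortical genes were higher (median 0.31), but the median was −0.15 without Vehicle 1, in which Neurod6 was at 1.43 FPKM against 23.5 and 16.7 FPKM in the other vehicle libraries. Tph2, the serotonin-synthesising enzyme of the raphe, was at 18.2, 7.57 and 0.124 FPKM in vehicle libraries. It was at 1.74 FPKM in MPTP 2 and at 13.3 to 15.1 FPKM in the other 5 exposed libraries. The part of the dissected area in any gene difference was not tested.

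Choroid plexus genes were higher in exposed mice in 16 of 16 (median log2 difference 1.02), 9 of them with an unadjusted p under 0.05 (56.2%, against 3.17% of all genes higher). Ttr, transthyretin, the most abundant choroid plexus transcript, was at 32.0, 41.9 and 328 FPKM in vehicle and 1676, 929 and 2010 FPKM in MPTP libraries. In MPTP+PE libraries it was at 924, 18.5 and 770 FPKM, so MPTP+PE 2 was lower than every vehicle library. Enpp2, which makes lysophosphatidic acid and is also expressed by oligodendrocytes, was at 57.7 to 71.0 FPKM in vehicle and 72.4 to 212 FPKM in exposed libraries, without overlap. Clic6, an epithelial chloride channel protein, was at 0.844 to 4.55 and 1.17 to 14.7 FPKM.

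Red blood cell genes were lower in exposed mice. Of 7 tested, 5 had an unadjusted p under 0.05, all lower (71.4%, against 3.11% of all genes lower), and the list median was −1.66. Hba-a1, an alpha globin, was at 14.0, 15.9 and 107 FPKM in vehicle, 8.24, 12.2 and 9.78 FPKM in MPTP and 3.05, 2.24 and 10.9 FPKM in MPTP+PE libraries. All exposed values were below all vehicle values, yet most of the difference in means came from Vehicle 3. Without that library the list median was −0.66. Hba-a1 and Hba-a2 are near-identical copies and their split is uncertain. Alas2, the haem synthesis enzyme of red cell precursors, was at 0.378 to 2.52 FPKM in vehicle and 0.0983 to 0.336 FPKM in exposed libraries.

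**Figure D2:**
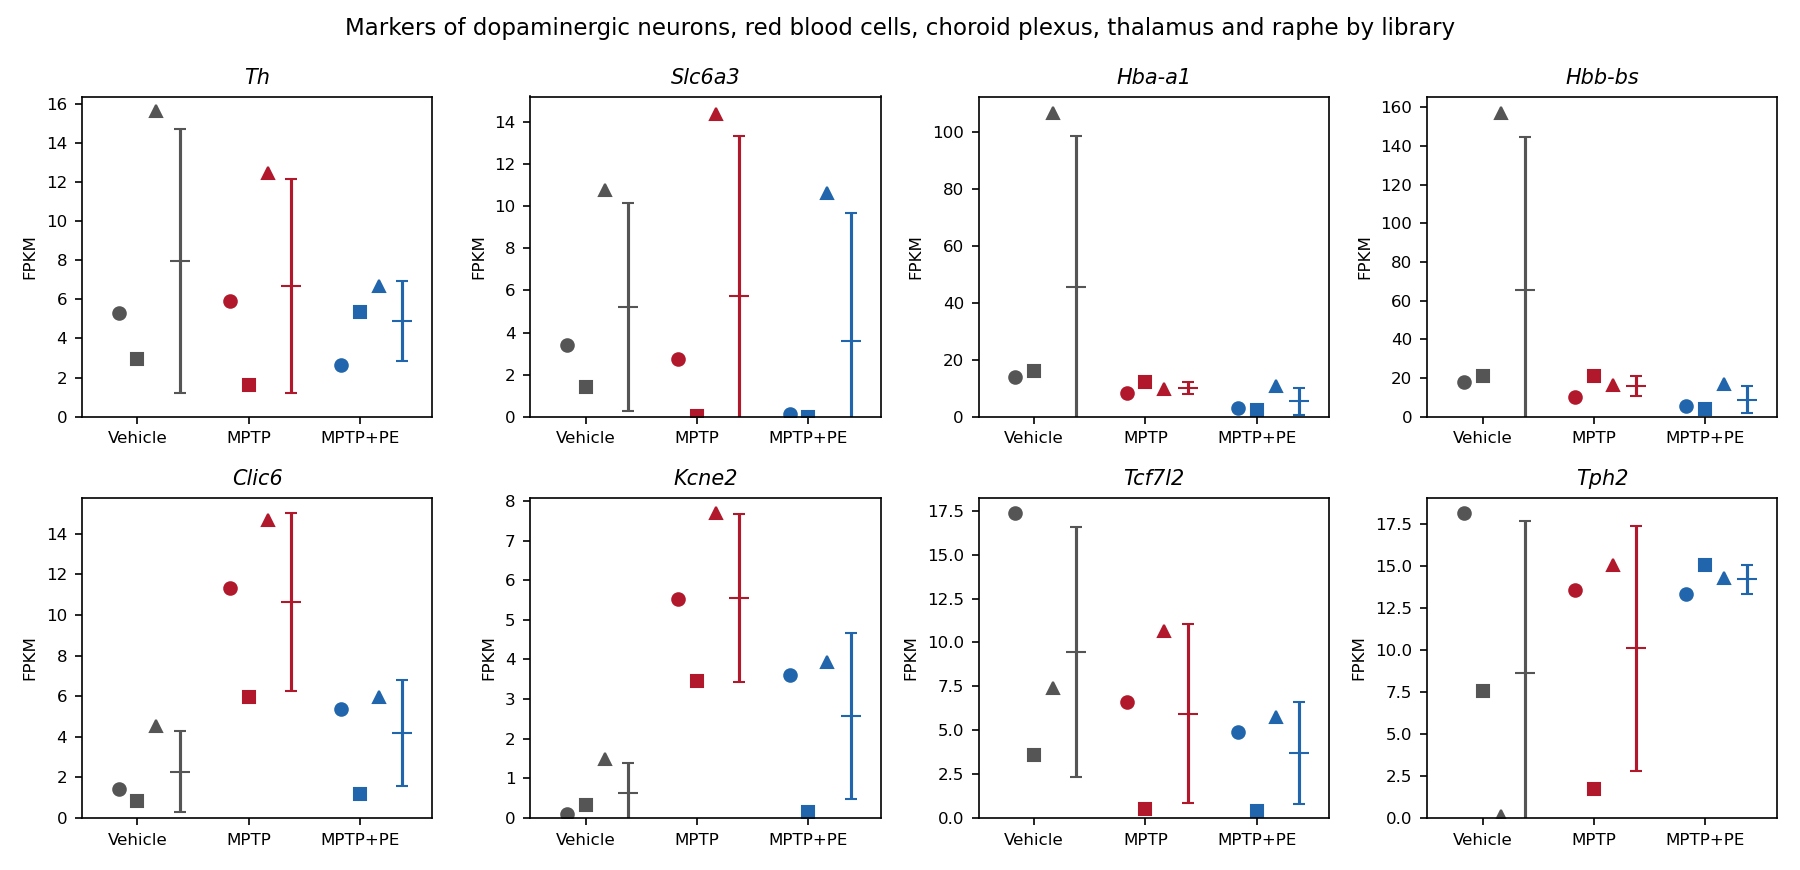
FPKM (linear axis from 0) of dopaminergic (Th, Slc6a3), red blood cell (Hba-a1, Hbb-bs), choroid plexus (Clic6, Kcne2), thalamic (Tcf7l2) and raphe (Tph2) markers in each library, with the mean and SD of each group of 3, bars cut off at 0 and circles, squares and triangles for replicates 1, 2 and 3. Vehicle 3 stands alone for both globins (107 FPKM for Hba-a1), MPTP+PE 2 is near 0 for Clic6 and Kcne2, and Th and Slc6a3 spread as widely within each group as between groups.

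The insulin-like growth factor list had 1 member whose exposed values all lay above vehicle and 3 whose values all lay below. Over all genes the shares were 1.71% and 1.85%. Insulin-like growth factors act through the receptors Igf1r and Insr, and binding proteins hold them in the extracellular space. Of 14 tested genes, 4 were higher and 10 lower (median log2 difference −0.10). The unadjusted p was under 0.05 for Igfbp2 (higher, 7.14% against 3.17% of all genes) and for Igf1, Igf1r and Insr (lower, 21.4% against 3.11%). Insr, the insulin receptor, was at 5.35, 4.81 and 5.34 FPKM in vehicle, 2.69, 1.34 and 3.04 FPKM in MPTP and 3.80, 4.43 and 4.17 FPKM in MPTP+PE libraries. Every exposed value was below every vehicle value, and the MPTP values were below the MPTP+PE values. Its log2 difference was −0.59 with a standard error of 0.24 (limma adjusted p 0.741).

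Igf1, the ligand made by microglia and neurons, was at 1.60, 1.10 and 2.04 FPKM in vehicle, 1, 1.12 and 1.11 FPKM in MPTP and 1.11, 0.768 and 1.04 FPKM in MPTP+PE libraries, and Vehicle 2 lay inside the exposed range. Irs1, the docking protein below both receptors, was at 2.65 to 2.79 FPKM in vehicle and 1.91 to 2.63 FPKM in exposed libraries, and Igfbp5 was at 34.5 to 39.2 and 21.5 to 34.0 FPKM. Neither overlapped, with unadjusted limma p of 0.123 and 0.0527. Igfbp2, a binding protein of astrocytes, choroid plexus and leptomeninges, was at 13.1, 14.1 and 12.7 FPKM in vehicle and 26.6, 26.8 and 24.0 FPKM in MPTP libraries. In MPTP+PE libraries it was at 14.6, 15.2 and 14.4 FPKM, just above vehicle, so the pooled difference of 0.52 rested mostly on the sedentary arm (adjusted p 0.082 for MPTP+PE against MPTP, limma).

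Cystine uptake and glutathione genes, which supply Gpx4 with its substrate and so limit lipid peroxidation, were higher in 11 of 19 (median log2 difference 0.03). Slc7a11, the cystine carrier of the study's title, was at 2.80, 3.71 and 3.96 FPKM in vehicle, 3.09, 3.40 and 3.72 FPKM in MPTP and 3.53, 2.21 and 3.03 FPKM in MPTP+PE libraries. The groups overlapped (log2 difference −0.11, exact permutation p 0.488). Alox12, the lipoxygenase of the title, was under the limit at 0.172, 0.196 and 0.187 FPKM in vehicle libraries. It was at 0.232, 0.164 and 0.144 FPKM in MPTP and 0.0756, 0.0593 and 0.105 FPKM in MPTP+PE libraries. Of the exposed values, 5 of 6 were below vehicle and MPTP 1 was above (exact permutation p 0.214). Leaving out MPTP 1, the 1 exposed value above vehicle, removes the overlap by construction. The unadjusted exact permutation p was then 0.0357, which adds no support for a difference. At such levels a few fragments decide the value.

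Gpx4 (ENSMUSG00000075706, chr10:80047166-80056439), the peroxidase that removes phospholipid hydroperoxides, was at 113, 109 and 102 FPKM in vehicle libraries. It was at 136, 157 and 121 FPKM in MPTP and 139, 153 and 120 FPKM in MPTP+PE libraries. The values did not overlap and both arms spanned a like range, with a log2 difference of 0.34 and a standard error of 0.10 (unadjusted limma p 0.00699, adjusted 0.741). Among 24 genes of the Nrf2 antioxidant list, 15 were higher, with an unadjusted p under 0.05 for Gstm5 and Sod1 (8.33%, against 3.17% of all genes higher). Gstm5, a glutathione transferase, was at 67.0 to 79.2 FPKM in vehicle and 83.6 to 107 FPKM in exposed libraries. Sod1, the cytosolic superoxide dismutase, was at 31.8 to 34.3 and 34.3 to 41.4 FPKM. Keap1 and Nfe2l2, which encode the sensor and the factor itself, overlapped.

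Iron genes were higher in 10 of 22 tested. Hfe, which tunes transferrin uptake and is itself a class I-like molecule, was at 1.13 to 1.33 FPKM in vehicle and 1.37 to 2.51 FPKM in exposed libraries, without overlap. Slc25a37, the mitochondrial iron importer, was at 5.03 to 6.19 and 3.85 to 5.54 FPKM. Tfrc, the transferrin receptor, was at 19.2 to 22.1 and 18.8 to 23.2 FPKM. Of 19 genes for the membrane lipids of ferroptosis, 6 were higher and only Pebp1, a partner of lipoxygenases and inhibitor of Raf, had an unadjusted p under 0.05. It was at 104 to 113 FPKM in vehicle and 115 to 144 FPKM in exposed libraries. Acsl4, which puts polyunsaturated fatty acids into phospholipids, was at 13.2 to 13.9 and 10.2 to 15.7 FPKM. Of 11 lipoxygenase and cyclooxygenase genes, 7 were higher and none had an unadjusted p under 0.05.

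Respiratory chain and ribosomal protein genes were slightly higher as groups. Of 47 nuclear genes of the respiratory chain, the target of MPP+, 46 were higher with a median log2 difference of 0.17. An unadjusted p under 0.05 was found for 12 (25.5%, against 3.17% of all genes higher). Ndufa4, a small subunit of the chain, was at 69.8, 63.2 and 59.1 FPKM in vehicle, 78.4, 95.6 and 67.7 FPKM in MPTP and 90.0, 91.4 and 73.8 FPKM in MPTP+PE libraries, with MPTP 3 inside the vehicle range. Ndufb3, an accessory subunit of complex I, was at 67.3 to 70.8 FPKM in vehicle and 72.9 to 83.1 FPKM in exposed libraries, without overlap. Of 40 cytosolic ribosomal protein genes, 39 were higher with a median of 0.18. The unadjusted p was under 0.05 for 20 (50%, against 3.17% of all genes higher). For 12 all exposed values lay above vehicle, as for 1.71% of all genes. Rps7, of the small subunit, was at 75.5, 72.7 and 81.5 FPKM in vehicle and 86.5 to 112 FPKM in exposed libraries. Reads of these genes may be shared with their many processed pseudogenes.

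Of 13 mitochondrial mRNAs, 11 were higher with a median of 0.11. The exposed values of 4 lay all above vehicle, as did those of 1.71% of all genes. Among the 4 was mt-Co3, a cytochrome oxidase subunit, at 6623 to 6763 FPKM in vehicle and 6797 to 9245 FPKM in exposed libraries. Under quantile normalization the median of this list was −0.01. The arms gave like values here, with list medians for MPTP and MPTP+PE of 0.14 and 0.20 for the nuclear chain and 0.17 and 0.21 for ribosomal proteins.

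Transcript length moved with these groups. Over all protein-coding genes tested, cut into 10 equal classes by exonic length, the median log2 difference went step by step from 0.10 in the class of the shortest (171 to 1758 bases) to −0.12 in the class of the longest (10033 to 41324 bases). The median exonic length was 1752 bases in the ribosomal list and 1831 bases in the nuclear respiratory chain list. The deviation of the shortest from the longest class was 0.33 in MPTP 2, 0.12, 0.08 and 0.03 in MPTP+PE 1 to 3, −0.05 and −0.10 in MPTP 1 and 3 and −0.10 to −0.18 in vehicle libraries. With length taken out of each library, the medians were 0.15 for ribosomal proteins, 0.13 for the nuclear chain and 0.05 for the mitochondrial genome. The interferon median was 0.61 after the same step.

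**Figure D3:**
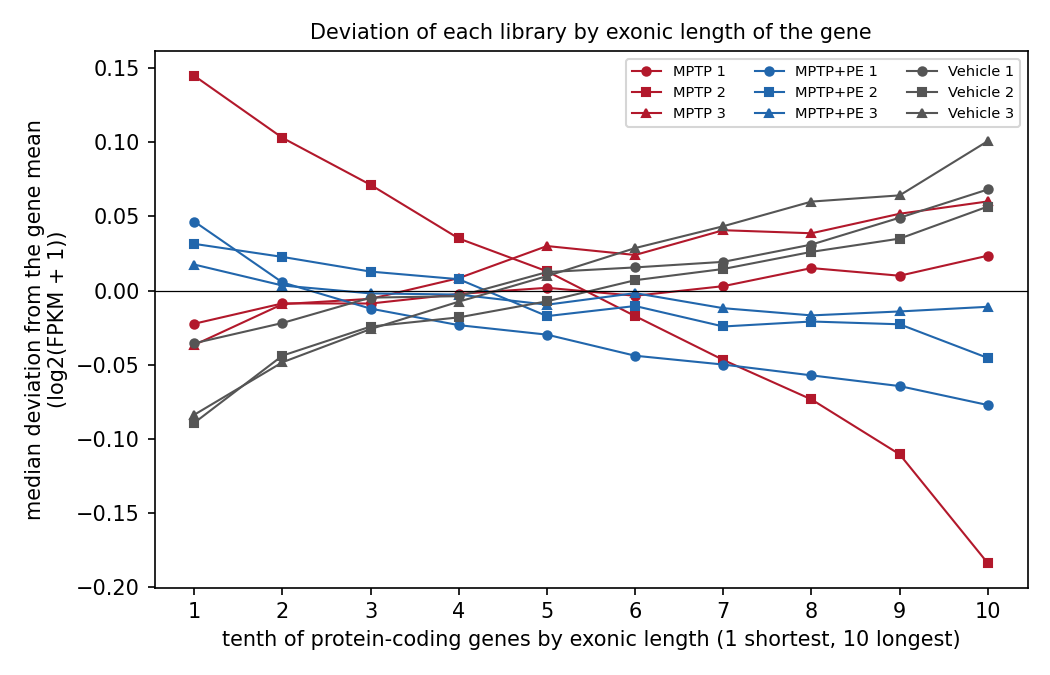
Median deviation of each library from the gene's mean (log2(FPKM + 1)) across 10 equal classes of protein-coding genes by exonic length, from shortest to longest, 1 line per library. The 3 vehicle lines slope upwards, MPTP 2 slopes steeply downwards (0.33 between the ends), and MPTP 1 and 3 also slope upwards. Circles, squares and triangles are replicates 1, 2 and 3.

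Among genes without overlap between exposed and vehicle libraries, the 12 of smallest p on each side came from several functions, and Ifi27, Ctss and Cd52, described above, were among them. Snrnp25 (ENSMUSG00000040767, chr11:32205415-32208984), a protein of the minor spliceosome, was at 6.26, 6.11 and 6.15 FPKM in vehicle, 8.24, 8.53 and 10.6 FPKM in MPTP and 9.80, 8.57 and 11.7 FPKM in MPTP+PE libraries. Its means were 9.56 ± 1.36 (SD, n = 6) and 6.17 ± 0.0787 FPKM (SD, n = 3), the smallest p among the separated genes of at least 1 FPKM (unadjusted limma p 0.000452, adjusted 0.741). Hsd11b1, which regenerates active glucocorticoid inside cells, was at 5.14, 3.95 and 2.62 FPKM in vehicle, 8.91, 9.84 and 5.84 FPKM in MPTP and 7.90, 8.35 and 7.26 FPKM in MPTP+PE libraries. Its exposed mean was 2.05 times the vehicle mean, and the arms differed by only −0.03 on the log2 scale. Of 19 genes that glucocorticoid induces, 11 were higher and none had an unadjusted p under 0.05.

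Several of the other higher genes serve basic cell functions. Pdcd5, a cell death and protein folding factor, was at 6.06 to 6.52 FPKM in vehicle and 7.36 to 8.33 FPKM in exposed libraries. Mrps6, a mitochondrial ribosomal protein whose locus overlaps Slc5a3, was at 7.66 to 8.17 and 9.14 to 10.7 FPKM, and Med31, a subunit of the Mediator complex, at 3.81 to 4.71 and 5.18 to 5.56 FPKM. Thyn1, Zbtb8os and Rpusd3, which modifies mitochondrial RNA, had exposed means 1.33, 1.42 and 1.59 times the vehicle means. The mitochondrial glycine tRNA gene mt-Tg was at 42.1 to 61.5 and 68.6 to 84.7 FPKM, but mRNA libraries capture tRNA only as part of longer precursors.

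Among genes lower in both arms, Prrc2c (ENSMUSG00000040225, chr1:162670725-162740556), a large RNA-binding protein of stress granules, was at 11.9, 11.5 and 12.4 FPKM in vehicle libraries. It was at 8.76, 6.25 and 9.28 FPKM in MPTP and 6.49, 7.98 and 8 FPKM in MPTP+PE libraries. The log2 difference was −0.57 with a standard error of 0.12 (unadjusted limma p 0.000681, adjusted 0.741). Its exonic length is 16092 bases, in the longest class. Mgat5, which branches N-glycans, was at 11.3 to 12.4 FPKM in vehicle and 8.95 to 9.93 FPKM in exposed libraries, and Pcdh10, an adhesion protocadherin, at 12.3 to 12.4 and 9.05 to 10.9 FPKM. Metrn, the neurotrophic factor meteorin, was at 10.4 to 14.7 and 6.51 to 9 FPKM. Shisa9, an auxiliary subunit of AMPA receptors, was at 13 to 18.7 and 7.67 to 12 FPKM, and Gkn3, a secreted protein of brain arteries, at 2.13 to 3.03 and 1.15 to 1.80 FPKM.

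The remaining lower genes were Yeats2, a histone acetylation reader, Actr5, a chromatin remodelling subunit, Cep170b, a microtubule protein, Rgp1, a membrane traffic factor, Cemip2 and the microRNA gene Mir6942. Their exposed means were 0.707, 0.729, 0.772, 0.756, 0.729 and 0.442 times the vehicle means. Mir6942 was at 2.67, 1.90 and 3.04 FPKM in vehicle and 0.743 to 1.65 FPKM in exposed libraries over a gene of 61 bases. Its mature sequences (RefSeq, seed in capitals) show what the locus encodes, but the libraries measured fragments over the hairpin and not the mature strands.
mmu-miR-6942-5p: uAGGAGGAggggaacauuugc
mmu-miR-6942-3p: uUAUGGUUcucuccaccucuca

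**Figure D4:**
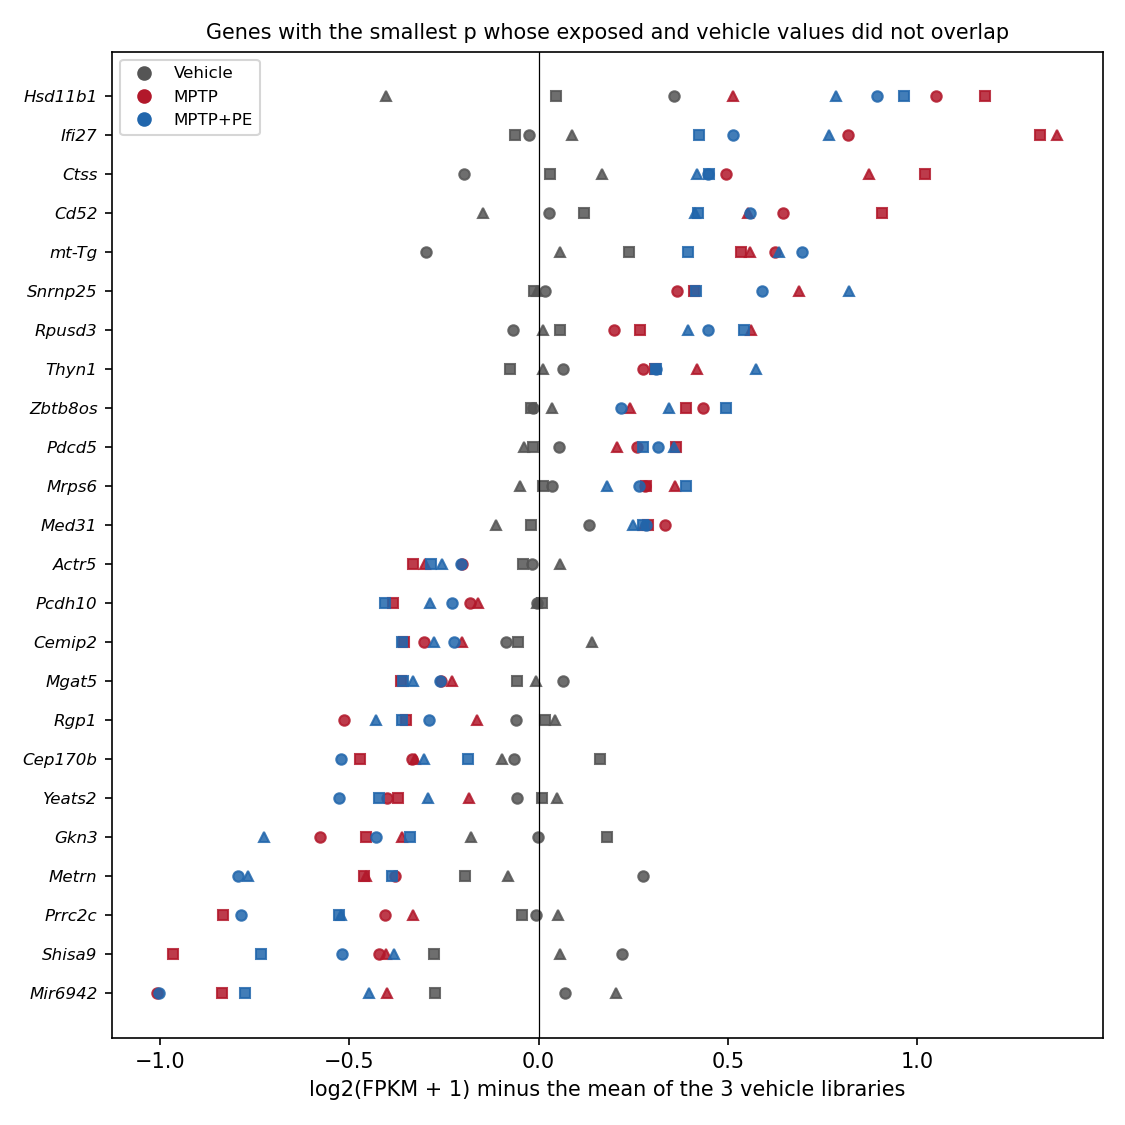
log2(FPKM + 1) minus the mean of the 3 vehicle libraries (horizontal axis) in each of 9 libraries, for the 12 genes higher and 12 lower with the smallest p whose exposed and vehicle values did not overlap. MPTP and MPTP+PE points intermingle for most genes, while for Ifi27 and Ctss all MPTP points lie beyond the MPTP+PE points. The genes were picked for lacking overlap, so the gap itself shows nothing further.

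RNA-binding and splicing factors were lower in 24 of 30, with a median log2 difference of −0.08 and a median exonic length of 5898 bases. Hnrnpa3 and Tra2a were lower at an unadjusted p under 0.05 (6.67%, against 3.11% of all genes lower). Hnrnpa3, which binds and moves mRNA, was at 49.3, 42.8 and 49.8 FPKM in vehicle and 24.5, 21.1 and 26.1 FPKM in MPTP libraries. In MPTP+PE libraries it was at 26.9, 43.7 and 25.2 FPKM, so 5 of 6 exposed libraries were well below vehicle and MPTP+PE 2 was at the vehicle level. Its log2 difference was −0.77 with a standard error of 0.19 (adjusted p 0.741, limma). Tra2a, a splicing activator, was at 11.3 to 14.0 FPKM in vehicle and 8.13 to 11.1 FPKM in exposed libraries. Meg3, a nuclear long noncoding RNA, was at 155, 162 and 164 FPKM in vehicle and 86.4 to 161 FPKM in exposed libraries. Of 10 tested nuclear and unspliced RNAs, 6 were lower, Meg3 and Snhg11 at an unadjusted p under 0.05 (20%).

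Of 16 genes of cell death, 8 were higher and 8 lower. An unadjusted p under 0.05 was found for 2 of those lower (12.5%, against 3.11% of all genes lower). Bcl2, which blocks apoptosis, was at 2.68 to 2.94 FPKM in vehicle and 1.96 to 2.65 FPKM in exposed libraries, and Bcl2l11, its antagonist Bim, at 0.685 to 0.897 and 0.316 to 0.681 FPKM. Neither overlapped. Of 20 familial Parkinson disease genes, 11 were higher, and only Park7, which encodes the oxidation-sensitive protein DJ-1, had an unadjusted p under 0.05, at 23.8 to 25.9 and 24.2 to 31.6 FPKM. Of 20 clock genes, 1 (Per3, lower) had an unadjusted p under 0.05. Both counts of 1 in 20 are near the background of 3.17% higher and 3.11% lower over all genes, so neither is a result about its list. Per3, of the circadian clock, was at 5.16 to 5.49 FPKM in vehicle and 4.21 to 4.72 FPKM in exposed libraries. Slc5a7, the choline transporter of cholinergic neurons, was at 0.992 to 1.68 and 1.90 to 7.10 FPKM, with the top values in MPTP 1 and MPTP+PE 2.

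Other lists held no member with an unadjusted p under 0.05. These were immediate early genes (10 of 29 higher), heat shock (16 of 20), the unfolded protein response (12 of 18), cholesterol synthesis (13 of 22), synaptic vesicle genes (12 of 24), astrocytes (7 of 14), oligodendrocytes (2 of 16 higher, median −0.08), oligodendrocyte precursors (1 of 12) and striatal neurons (1 of 12). Lysosome and autophagy genes were higher in 23 of 31, with Ctsd, Gabarap and Gabarapl1 at an unadjusted p under 0.05 (9.68%, against 3.17% of all genes higher). The counts higher were 3 of 11 for MPTP uptake and metabolism and 2 of 12 for GABAergic neurons of the pars reticulata, again with none at that level. Further lists had 1 or 2 such members. Among them were mitochondrial biogenesis (7 of 17 higher, Uqcc1 lower, 5.88%) and neurotrophic factors (10 of 20 higher, Cntf and Igf1 lower, 10%). Others were ependyma (5 of 10 higher, Mia higher, 10%), pericytes and fibroblasts (4 of 17 higher, Vtn lower, 5.88%) and border macrophages (1 of 8 higher, Pf4 lower, 12.5%). Over all genes, 3.17% were higher and 3.11% lower at that level. Gh, growth hormone of the pituitary, was listed at 0 in Vehicle 1, Vehicle 2 and MPTP 2 and was at 17.1 FPKM in MPTP 3 and 15.2 FPKM in MPTP+PE 1, so it followed single libraries. Endothelial genes were higher in 10 of 20. Slco1c1, Ocln and Ramp2 were higher at an unadjusted p under 0.05 (15%, against 3.17% of all genes higher). By arm, 16 of 20 were higher than vehicle in MPTP (median 0.11) and 7 of 20 in MPTP+PE (median −0.14).

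**Figure D5:**
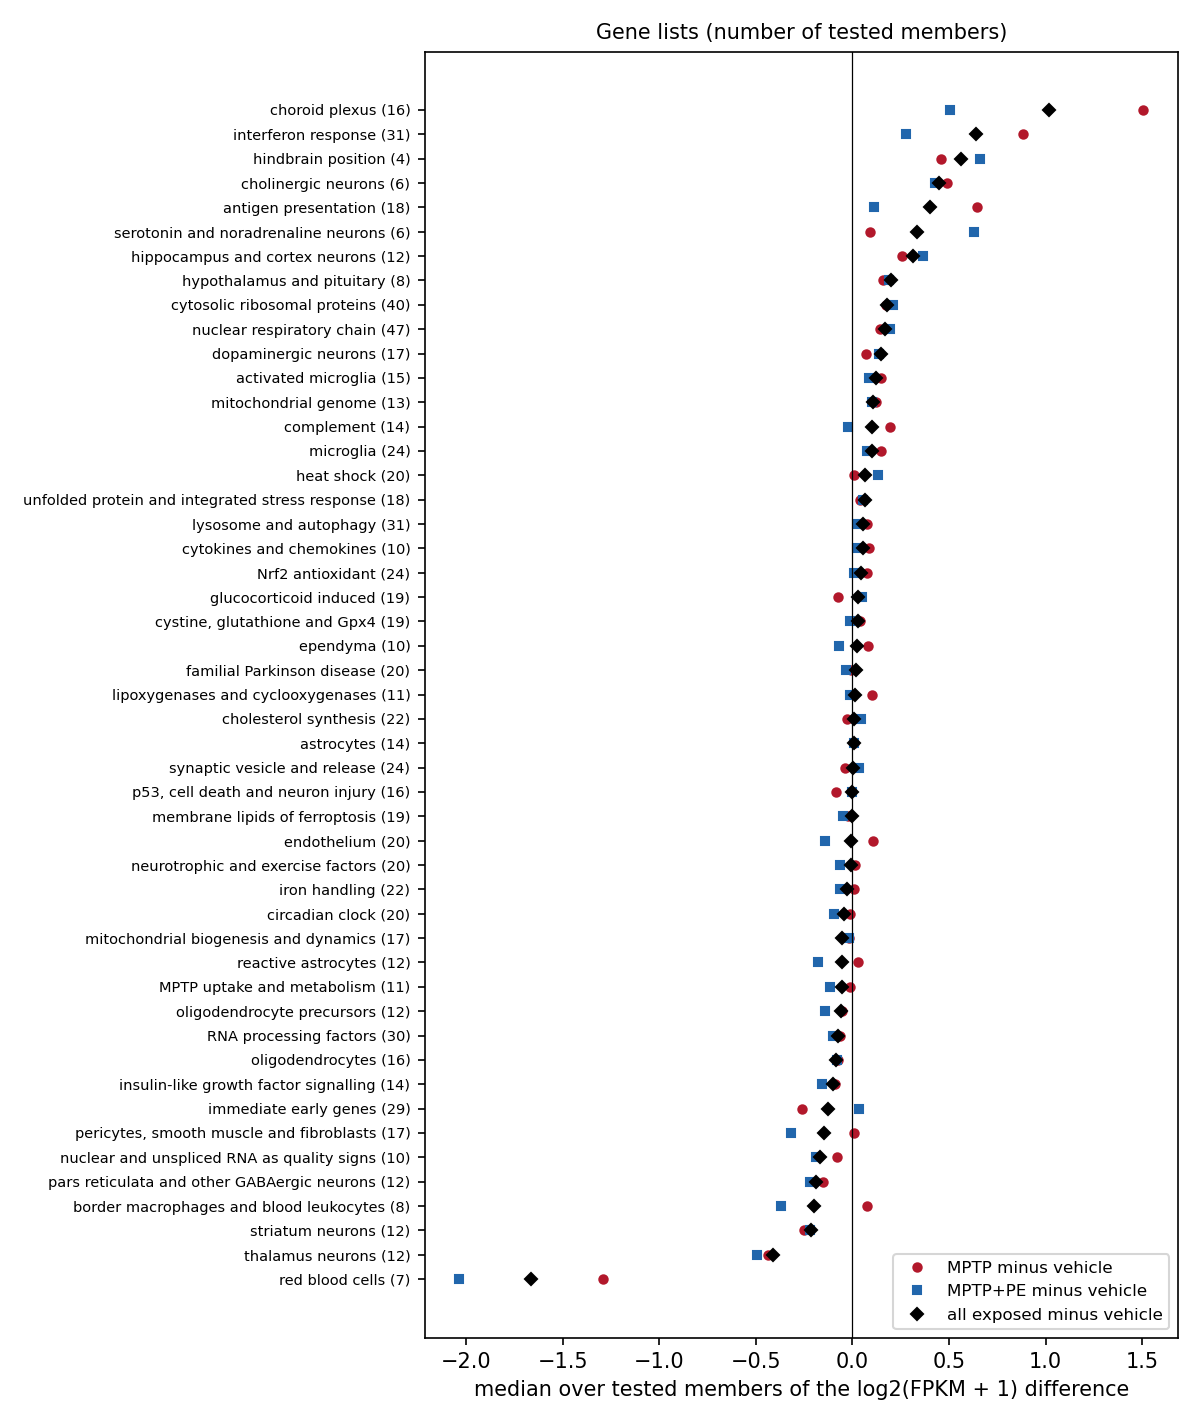
Median log2(FPKM + 1) difference from vehicle over the tested members of each list (horizontal axis) for all exposed libraries (black), MPTP (red) and MPTP+PE (blue), with the number of tested members in brackets. Among the black markers, choroid plexus (1.02) and interferon response (0.64) lie furthest right and red blood cells (−1.66) furthest left. Among those for MPTP+PE, hindbrain position (0.66) and serotonin and noradrenaline neurons (0.63) lie furthest right, and both follow single libraries. Mean log2(FPKM + 1) over the 4 tested hindbrain genes was 0.02, 2.81 and 0 in MPTP+PE 1 to 3. For the 6 tested serotonin and noradrenaline genes it was 2.61, 1.86 and 0.53 in Vehicle 1 to 3. The markers for MPTP and MPTP+PE share the vehicle libraries.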

How the data were processed

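The authors deposited FPKM per gene, used here as given. Per the labels, the libraries were made from bead-enriched mRNA and read on a NovaSeq6000. Per the submitters' processing notes, bcl2fastq, HTSeq and DESeq2 and the build GRCm38 were used, without versions. For the aligner, the FPKM tool and strandedness the entry is: not given in the sources used here. No counts were used, so depth is unknown. Of the gene IDs, 55154 matched GENCODE M21 and 181 did not.

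Tests ran in limma 3.58.1 (R 4.3.3) on log2(FPKM + 1) of genes averaging 0.5 FPKM or more, with a trended variance. The log scale understates changes of low genes. The pooled fit had 7 residual and 2.72 prior degrees of freedom. The arms came from a fit of 3 group means (6 residual, 2.68 prior). P-values are two-sided, adjusted by Benjamini-Hochberg at 0.05. No label ties each library to its own animal (3 mice are given for a group), so a p-value reflects library-to-library spread, which may be technical. The 6 single genes had an exact permutation test.

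Named genes were, in each direction, the 12 of smallest p at a mean of at least 1 FPKM and without overlap between groups. To these were added 10 genes of the study's title and the earlier results, and from each of 49 lists the first 2 and, where 3 in 4 members lay in 1 direction, up to 3 of smallest p. Other list members named were chosen after their values were seen. Members and lists were chosen with earlier results of these data known. Tables, promoters and figures were made with Python 3.11.15, pandas 2.3.3 and matplotlib 3.10.9. The fit was tested on simulated data.

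Replicate numbers have no stated meaning. Deviations from the group mean correlated at 0.25, 0.33 and 0.11 between same-numbered MPTP and Vehicle libraries, but at −0.26, 0.007 and 0.24 between MPTP+PE and Vehicle. Between MPTP and MPTP+PE they correlated at −0.34, −0.13 and 0.25. Of the 9 libraries, 4 correlated best with their own number in another group. No comparison was therefore read as paired. With a replicate block over all 9 libraries, 3 genes in place of 2 were called for MPTP against vehicle, Enpp2 being the added gene.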

Additional observations from a re-analysis of the deposited data

Results flagged for a closer look

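Among the 6 exposed libraries, 11 of 181 named genes had 1 library far from the rest by Dixon's test at the 95% level, which a group of unremarkable values meets about 1 time in 20. Their part in any difference was not tested. MPTP 2 was low for the serotonergic genes Tph2 (1.74 FPKM) and Slc6a4, the serotonin transporter (0.525 FPKM), and high for the astrocyte enzyme Aldh1l1 (17.9 FPKM). MPTP+PE 2 was low for the choroid plexus genes Ttr (18.5 FPKM) and Kcne2 (0.157 FPKM) and for Igf1 (0.768 FPKM), and high for Hnrnpa3 (43.7 FPKM). MPTP 1 was low for Foxp1, a striatal and cortical factor (1.53 FPKM), and high for the hormone precursor Pomc (1.80 FPKM). MPTP+PE 1 was high for mt-Atp8 (13112 FPKM), and MPTP+PE 3 for Avp, vasopressin (1.75 FPKM).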

How the results depend on the processing

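Over 27 alternatives, the pooled comparison called 0 genes in 23. It called 10 without a filter on low values, all lower, 1 (Ttr) without Vehicle 3 and MPTP+PE 2 together, which were the highest vehicle and the lowest exposed library for Ttr and were chosen with that known, and 0 to 3 when single libraries were left out. With the replicate block it called 0 genes (539 higher and 574 lower at an unadjusted p under 0.05). Leaving out single libraries gave 0 to 32 genes for MPTP, 0 to 2 for MPTP+PE and 0 to 25 for MPTP+PE against MPTP. That contrast called 1 (Igfbp2) with the same FPKM sum. Separated genes numbered 126 above and 606 below with the same sum outside the mitochondrial genome, and 92 above and 758 below with the same sum over all genes. They numbered 90 below at 5 FPKM or more, where fewer genes were tested, and 191 below with length taken out. The exact permutation p of Alox12 ranged from 0.0357 (without MPTP 1, the 1 exposed value above vehicle) to 0.321. Of 1320 list medians under alternatives, 11 reversed. Quantile normalization turned mt-Nd3 (−0.068), mt-Atp8 (−0.018), the mitochondrial genome (−0.00997) and heat shock (−0.00327). Heat shock was also at −0.000294 and −0.0137 with equal sums and −0.034 without Vehicle 3 and MPTP+PE 2. The choroid plexus covariate turned complement (−0.015) and oligodendrocytes (0.15). Leaving out single libraries took the list medians of oligodendrocytes from −0.19 to 0.11, of hippocampus and cortex from −0.15 to 0.64 and of serotonin and noradrenaline from −0.15 to 0.81 (−0.30 without Vehicle 3 and MPTP+PE 2). The cause was not tested. The interferon median stayed between 0.38 and 0.87 and antigen presentation between 0.28 and 0.66. Of 180 tested named genes, 122 kept 1 direction under every alternative. Genes named for lack of overlap keep their direction by construction when a library is left out. The count is therefore partly set by the choice of genes. All alternatives used the same libraries, and 2 (length taken out, and both libraries left out together) were chosen after seeing the data.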
